A study of Mus musculus with 10 samples.

Results

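The Hox genes encode homeodomain transcription factors and lie in 4 clusters, called a, b, c and d. The members described here are 38 listed Hox genes, 10 in cluster a, 10 in cluster b, 9 in cluster c and 9 in cluster d, out of 21887 protein-coding genes in the mouse RefSeq gene table. Other Hox genes were not analysed here. They were chosen by gene name, with no threshold on a measured value. Over the 4 clusters the peaks of all libraries merged into 95 regions, out of 351411 in the genome.

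Open chromatin was mapped by ATAC-seq, which reads where a transposase can reach the DNA, in thymic epithelial cells (TEC) sorted from enzyme-digested thymus of wild-type C57BL/6 mice. The 6 day 6 libraries were 2 each of the fractions labelled d6_mTEC4, d6_mTEC1 and d6_mTEC2, and the 4 embryonic libraries were 2 each of embryonic day 17 (E17) and embryonic day 15 (E15). The labels do not spell out the fraction names, give no fraction for the embryonic libraries, and do not say whether replicates came from separate animals, so the p-values measure the spread between these libraries, which may be technical. Age and fraction changed together between the day 6 and the embryonic libraries, and the 2 cannot be told apart. The peak identifiers in the deposited lists carry fraction names unlike those in the titles, and 1 tag recurs in the d6_mTEC2, E17 and E15 lists but is missing from those of d6_mTEC4 and d6_mTEC1.

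The measurement was the number of called peaks in a window, namely the gene span with 5 kb added on each side, in each library. Lists held 40858 to 101917 peaks at day 6, against 86237 to 151646 in the embryonic libraries, and read depth is unknown. A window without a peak is one in which none was called, not one shown to be closed. In bulk libraries, fewer cells with an open site and a less open site in every cell cannot be told apart. Neighbouring windows overlap, so adjacent Hox genes share peaks. The RefSeq span of Hoxa3 runs across Hoxa4, Hoxa5 and Hoxa6, that of Hoxb3 across Hoxb4, and that of Hoxd3 across Hoxd4.

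As background, the order of genes along a Hox cluster follows the order in which they act along the body axis, with low-numbered paralogue groups acting towards the head and high-numbered groups towards the tail. Hox proteins bind DNA together with cofactors of the TALE class such as Pbx and Meis, and Polycomb and Trithorax proteins hold the clusters silent or active. Hoxa3 is needed in the mouse for the pharyngeal pouch that forms the thymus and the parathyroid glands, and Hoxb3 and Hoxd3 act with it in the neck.

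Promoter sequences are shown for 2 genes with an embryonic promoter peak and 2 without. RefSeq promoter windows of 300 bases (build GRCm38.p6) were held for 22 of the 38 genes, 24 windows in all. Those of Hoxa2 (chr6:52164782-52165081, minus strand) and Hoxd1 (chr2:74762730-74763029, plus strand) carried a peak in 0 of 6 day 6 libraries and in all 4 embryonic libraries. Those of Hoxa3 (chr6:52213018-52213317, minus strand) and Hoxd4 (chr2:74721728-74722027, plus strand) carried none in any library, and are printed for contrast. The Hoxa3 window lies at the 5′ end of its 44009 bp RefSeq span, and no window was held for any other Hoxa3 start. Elsewhere that span holds a region called in all 10 libraries. Capitals mark the letters of the HOX-PBX motif TGATTNAT and the MEIS motif CTGTCA in Hoxa2 and Hoxa3, and of the posterior HOX motif TTTATNG in Hoxd4, read on both strands.
Hoxa2: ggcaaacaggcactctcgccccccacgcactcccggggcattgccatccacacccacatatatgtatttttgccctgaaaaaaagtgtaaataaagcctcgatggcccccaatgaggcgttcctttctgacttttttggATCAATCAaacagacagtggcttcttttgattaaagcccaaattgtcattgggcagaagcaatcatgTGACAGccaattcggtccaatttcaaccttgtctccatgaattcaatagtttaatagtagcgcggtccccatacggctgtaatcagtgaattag
Hoxd1: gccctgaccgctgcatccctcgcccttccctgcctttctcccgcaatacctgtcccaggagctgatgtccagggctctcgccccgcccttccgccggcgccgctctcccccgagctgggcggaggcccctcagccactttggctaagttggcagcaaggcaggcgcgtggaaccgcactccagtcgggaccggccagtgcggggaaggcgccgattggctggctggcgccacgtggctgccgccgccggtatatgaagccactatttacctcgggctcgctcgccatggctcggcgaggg
Hoxa3: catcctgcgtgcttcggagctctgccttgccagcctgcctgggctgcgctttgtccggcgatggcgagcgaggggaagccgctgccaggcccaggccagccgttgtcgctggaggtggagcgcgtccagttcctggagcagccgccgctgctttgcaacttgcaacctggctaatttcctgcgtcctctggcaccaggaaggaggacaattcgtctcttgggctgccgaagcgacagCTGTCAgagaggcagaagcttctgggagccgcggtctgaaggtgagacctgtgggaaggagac
Hoxd4: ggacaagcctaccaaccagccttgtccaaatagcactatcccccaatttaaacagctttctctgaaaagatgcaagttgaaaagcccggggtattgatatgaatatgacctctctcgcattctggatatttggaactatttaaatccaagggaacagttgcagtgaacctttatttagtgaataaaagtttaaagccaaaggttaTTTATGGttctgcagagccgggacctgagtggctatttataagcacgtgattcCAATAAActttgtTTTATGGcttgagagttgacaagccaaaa
The Hoxa2 window held 1 HOX-PBX match and 1 MEIS match, the Hoxa3 window 1 MEIS match, the Hoxd4 window 3 posterior HOX matches, and the Hoxd1 window no match to any motif searched. A match is a description of the letters and not a site. HOX-PBX letters occurred in 8.33% of the Hox windows, against 2.75% of 21263 protein-coding promoter windows, and MEIS letters in 8.33%, against 18.7%. With 24 Hox windows these shares rest on 2 windows each. The same 300 bases held 9 CpG dinucleotides in Hoxa2, 29 in Hoxd1, 20 in Hoxa3 and 4 in Hoxd4, so the pair with embryonic peaks differed widely in base composition.

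Most of the 24 Hox promoter windows had no called peak at either age. Of the 24 windows, 17 (70.8%) carried no peak in any of the 10 libraries, against 34.9% of protein-coding promoter windows. None was called in all 6 day 6 libraries, against 30.6% of protein-coding windows, and the Hoxa2 and Hoxd1 windows (8.33%) alone were called in all 4 embryonic libraries, against 55.2%. The Hoxa5 promoter, of a gene needed for lung development, carried a peak in 2 day 6 and 3 embryonic libraries. The windows of Hoxa13, which patterns the digits, carried a peak in 1 day 6 and 1 embryonic library, and those of Hoxd9, Hoxd10 and 1 of the 2 starts of Hoxd11 in 1 to 2 embryonic libraries. By library, peaks lay in 0 to 1 of the 24 Hox windows at day 6, against 3 to 6 in the embryonic libraries. The Hox windows had a median of 14.5 CpG, against 13 in protein-coding windows. Among windows with at least 10 CpG, a bound chosen after the promoter values were seen and just above the 9 CpG of Hoxa2, 1 of 17 Hox windows was called in all 4 embryonic libraries, against 87.3% of 12067 protein-coding windows.

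**Figure D1:**
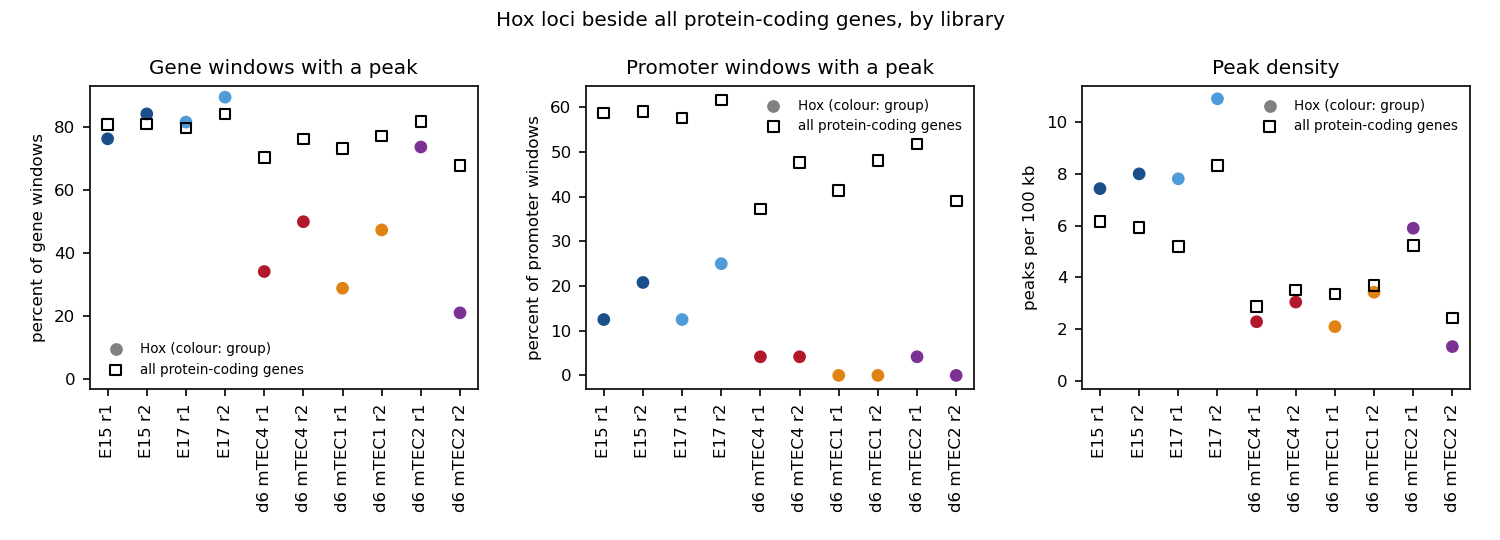
Hox loci (filled points, coloured by group) and all protein-coding genes (open squares) in each of the 10 libraries: percent of gene windows with a peak, percent of promoter windows with a peak, and peaks per 100 kb, where r is the replicate. Hox promoter windows with a peak range from 0% to 4.17% at day 6 and from 12.5% to 25.0% in the embryonic libraries, each below the value of all protein-coding promoters.

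Along whole gene windows the picture was different from that at promoters. At day 6, 21.1% to 73.7% of the 38 Hox windows held a peak, against 67.8% to 81.7% of all genes, and the Hox share was the lower in each of the 6 libraries. In the embryonic libraries it was 76.3% to 89.5%, close to the 79.7% to 84.2% of all genes. These shares were not matched for window length, and a shorter window is less likely to hold a peak. Peak density over the clusters was 0.545 to 1.13 times that of all gene windows at day 6, against 1.21 to 1.5 times in the embryonic libraries, with no overlap between the ages. The single day 6 library above 1 was d6_mTEC2 replicate 1, which had the longest of the 6 day 6 lists. This ratio was not taken for other gene lists, so its separation by age is not read as particular to Hox clusters. A peak shared by neighbouring gene windows counts in each of them, whereas a cluster interval counts it once.

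Between day 6 and the embryonic libraries, 5 Hox genes fell in number of peaks and 0 rose (exact two-sided permutation test over 210 arrangements of the libraries, Benjamini-Hochberg adjusted p under 0.05 over all 21891 features). They were Hoxa2, Hoxa3, Hoxb7, Hoxd1 and Hoxd3, 13.2% of the 38 genes. Across all protein-coding genes the same test called 11.5% lower and 0.128% higher at day 6, so the share of Hox genes called lower was near the background. A gene was called only at the smallest exact permutation p, 0.00476, which itself requires that the ages do not overlap. The day 6 libraries of the 5 genes therefore all lay below the embryonic libraries. No other member did so, and these 5 made up 13.2% of the 38 Hox genes, the same as the 13.2% of all genes. No member had every day 6 library above every embryonic library, against 0.21% of all genes. Without the adjustment, 11 Hox genes had an exact permutation p under 0.05, as had 34.3% of all genes. Without d6_mTEC2 replicate 1 the test called 8 Hox genes and 20% of all genes lower, and without any other single library 0 Hox genes and 0.0% of all genes. The mean was lower at day 6 for 35 Hox genes and higher for 2. The median difference was −0.959 peaks over the 38 Hox genes, against −0.833 over all genes.

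Hoxa3, whose window is the longest of the 38, had the most peaks of the Hox genes on average at both ages. Its window held 2 peaks in the lowest, 4.5 in the median and 8 in the highest day 6 library, against 10 and 13 in E17 and 12 and 10 in E15. The groups did not overlap, and the 3 fractions gave 2 and 6 peaks (d6_mTEC4), 4 and 5 (d6_mTEC1) and 8 and 4 (d6_mTEC2). The window averaged 4.83 ± 2.04 peaks at day 6 (SD, n = 6) and 11.2 ± 1.5 in the embryonic libraries (SD, n = 4), a difference of −6.42 (exact permutation p = 0.00476, the smallest 6 against 4 libraries can give; adjusted p = 0.0409). Ranked among all genes by peaks per length within each library, Hoxa3 stood at a mean percentile of 80.0 at day 6, against 93.7 in the embryonic libraries. Its day 6 ranks ran from 57.7 to 89.8, all below the embryonic 91.6 to 95.1.

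The other paralogues of group 3 gave a mixed picture. Hoxd3 held 0, 0.5 and 2 peaks in the lowest, median and highest day 6 library, against 3 and 4 in E17 and 3 and 4 in E15. The groups did not overlap, and the mean was 0.667 ± 0.816 at day 6 (n = 6) against 3.5 ± 0.577 (SD, n = 4), a difference of −2.83 (exact permutation, adjusted p = 0.0409). Over the gene span only, it was −1.08 and was not called (exact permutation, adjusted p = 0.225). Hoxb3 held 0, 1 and 3 peaks in the lowest, median and highest day 6 library, against 3 and 8 in E17 and 4 and 5 in E15. Its groups met at 3 peaks, its difference was −3.67, and it missed the threshold (exact permutation p = 0.019, adjusted p = 0.0837).

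Hoxa2, which patterns the skeleton of the second pharyngeal arch, held 0, 1 and 2 peaks in the lowest, median and highest day 6 library, against 4 and 3 in E17 and 3 and 4 in E15. It averaged 1 ± 0.632 peaks at day 6 (SD, n = 6) and 3.5 ± 0.577 in the embryonic libraries (SD, n = 4), a difference of −2.5 peaks (exact permutation, adjusted p = 0.0409). Over the gene span only, the difference was −0.5 and was not called (exact permutation, adjusted p = 0.336). By peaks per length it stood at a mean percentile of 67.3 among all genes at day 6 and of 97.4 in the embryonic libraries, the highest embryonic value of the 38. Hoxd1, known in the mouse from pain-sensing neurons, had 0 peaks in each day 6 library and 1 in each embryonic library (difference −1, exact permutation, adjusted p = 0.0409). Hoxb7, of the trunk-patterning middle of cluster b, had 0 to 1 peak in each day 6 library and 2 in each embryonic library, a difference of −1.33 (exact permutation, adjusted p = 0.0409). Over the gene span only, Hoxb7 differed by 0.167 and was not called, and the 2 regions of its window shared by the embryonic libraries lie in the Hoxb8 and Hoxb6 spans.

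**Figure D2:**
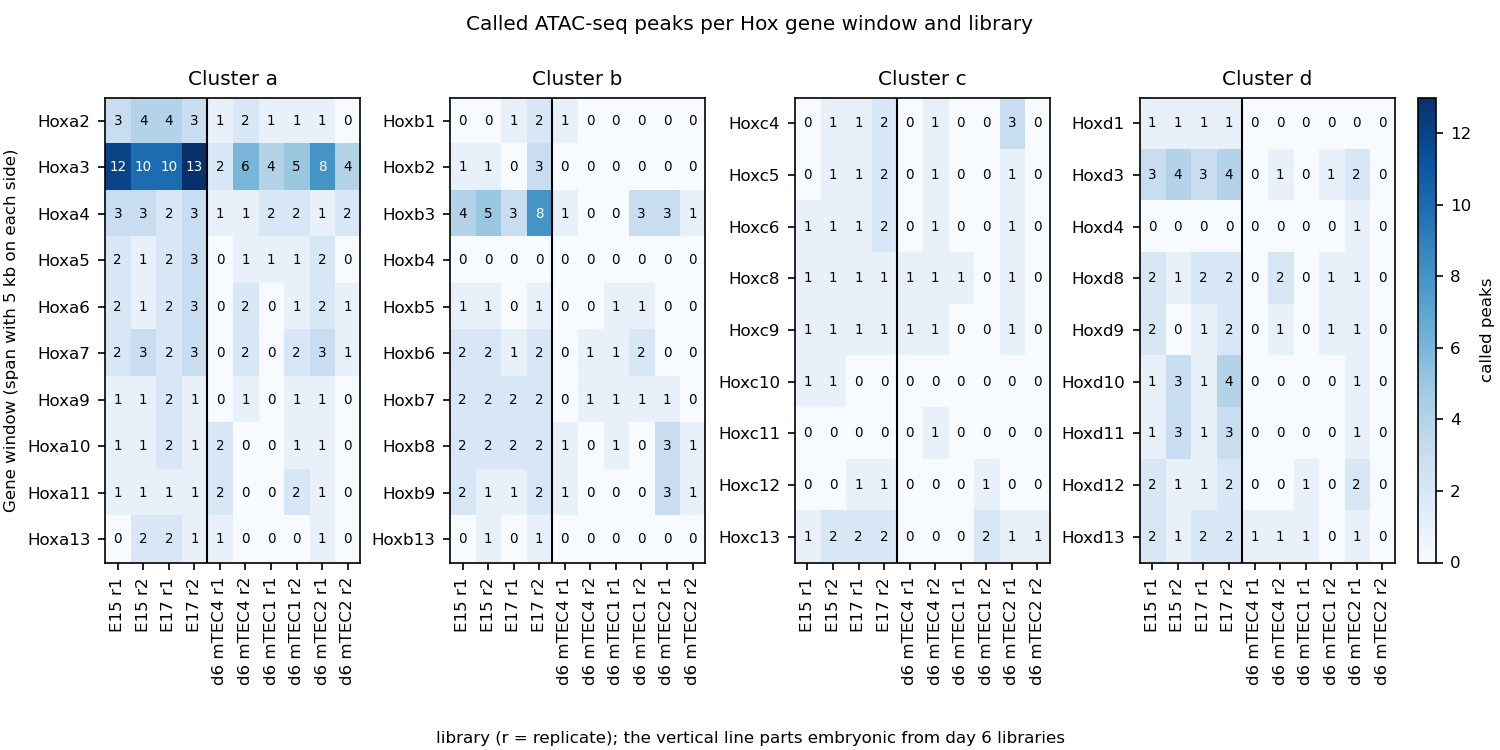
Called peaks in the window of each of the 38 Hox genes (genes down, by cluster, group 1 side at the top) in each of the 10 libraries (across, r for replicate), with darker blue for more peaks. Hoxa3 holds 2 to 8 peaks at day 6 and 10 to 13 in the embryonic libraries, Hoxd1 0 and 1, and Hoxb4 0 in all 10.

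Hoxd10 and Hoxd11, which act in limb and lower trunk, missed the threshold although most day 6 libraries had none. Hoxd10 had 1 peak in d6_mTEC2 replicate 1 and 0 in the other 5 day 6 libraries, against 1 and 4 in E17 and 1 and 3 in E15, a difference of −2.08 (exact permutation, adjusted p = 0.0761). Hoxd11 had the same day 6 values, against 1 and 3 in E17 and 1 and 3 in E15 (adjusted p = 0.0761, exact permutation). Hoxb2, a hindbrain gene, had 0 peaks in each day 6 library, against 0 and 3 in E17 and 1 and 1 in E15 (exact permutation, adjusted p = 0.111).

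Among members with small differences, Hoxb4, known from blood stem cells, had no called peak in any of the 10 libraries. Hoxa11 had 2 peaks in d6_mTEC4 replicate 1 and in d6_mTEC1 replicate 2 and 0 to 1 in the other day 6 libraries, against 1 in each embryonic library. Hoxa10 likewise had 2 peaks in d6_mTEC4 replicate 1, against 1 and 2 in E17 and 1 and 1 in E15. Hoxb5 had 1 peak in each d6_mTEC1 library and 0 in the other day 6 libraries, against 0 and 1 in E17 and 1 and 1 in E15. Hoxc11 and Hoxd4 were the 2 members with a higher mean at day 6. Each of them had 1 peak in 1 day 6 library and 0 elsewhere, a difference of 0.167. In cluster c, Hoxc13, which acts in hair and nail, differed by −1.08, Hoxc6 by −0.917 and Hoxc4 by −0.333, none past the threshold. Hoxd9 differed by −0.75 (exact permutation p = 0.224).

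The other members overlapped between the ages and none was called. In cluster a, Hoxa4 had 1 to 2 peaks at day 6 and 2 to 3 in the embryonic libraries (exact permutation, adjusted p = 0.12). Hoxa5 and Hoxa6 each had 0 to 2 and 1 to 3, Hoxa7 0 to 3 and 2 to 3, Hoxa9 0 to 1 and 1 to 2, and Hoxa13 0 to 1 and 0 to 2, day 6 and embryonic in turn. In cluster b, Hoxb8 and Hoxb9 reached 3 peaks at day 6, in d6_mTEC2 replicate 1, above the embryonic 2 and 1 to 2. Hoxb6 had 0 to 2 peaks at day 6 and 1 to 2 in the embryonic libraries, Hoxb1 0 to 1 and 0 to 2, and Hoxb13, the tail end of the cluster, 0 and 0 to 1. In cluster c, Hoxc8 and Hoxc9, genes of the thoracic trunk, had 0 to 1 peak at day 6 and 1 in each embryonic library. Both windows counted the same embryonic region (chr15:102987280-102987713), which lay in neither gene span, 2826 bp from Hoxc8. It was also called in 3 day 6 libraries. Hoxc5 had 0 to 1 at day 6 and 0 to 2 in the embryonic libraries, Hoxc12 0 to 1 at both ages, and Hoxc10 0 at day 6 and 1 in each E15 library alone. In cluster d, Hoxd8 and Hoxd12 had 0 to 2 peaks at day 6 and 1 to 2 in the embryonic libraries. Hoxd13, a digit gene, had 0 to 1 and 1 to 2 (exact permutation, adjusted p = 0.0969).

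By paralogue block, peaks per gene and peaks per length gave different orders. Groups 1 to 4 (11 genes) averaged 0.939 peaks per gene at day 6 and 2.73 in the embryonic libraries. Groups 5 to 8 (11 genes) averaged 0.712 and 1.64, and groups 9 to 13 (16 genes) 0.417 and 1.20, day 6 and embryonic in turn. Per 10 kb of window the means were 0.347 and 1.06 for groups 1 to 4, 0.498 and 1.13 for groups 5 to 8, and 0.283 and 0.794 for groups 9 to 13, so groups 5 to 8 were the highest at both ages on that scale. Within clusters the order per gene also varied. Cluster a had its highest block mean in groups 1 to 4 at both ages, whereas in cluster d groups 1 to 4 averaged 0.278 peaks per gene at day 6 and 1.5 in the embryonic libraries, below the 0.667 and 1.75 of Hoxd8, its only gene of groups 5 to 8. Of the 5 genes that fell, 4 belonged to groups 1 to 4, 1 to groups 5 to 8 and 0 to groups 9 to 13, beside 11.5% of all genes called lower. This split was not kept by percent of bases covered, where 67.9% of all genes fell. On that measure Hoxa9, Hoxc13, Hoxd10, Hoxd11, Hoxd12 and Hoxd13 of groups 9 to 13 fell too. Group 3 alone averaged 2.28 peaks per gene at day 6 and 6.58 in the embryonic libraries, the highest of the 13 groups at each age. By age and fraction, groups 1 to 4 averaged 2.55 peaks per gene in E15, 2.91 in E17, 0.773 in d6_mTEC4, 0.864 in d6_mTEC1 and 1.18 in d6_mTEC2. These windows share peaks and differ in length, so the block averages are descriptions without a test.

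The clusters, taken from the first to the last listed gene, were tested as 4 further features of the same table. Cluster a (chr6:52162417-52260880 with 5 kb on each side) held 4, 7 and 12 peaks in the lowest, median and highest day 6 library, against 18 and 18 in E17 and 16 and 17 in E15. The difference was −9.92 (exact permutation p = 0.00476, adjusted p = 0.0409), and the groups did not overlap. Cluster d (chr2:74668225-74765142) held 0, 1.5 and 5 peaks in the lowest, median and highest day 6 library, against 8 and 13 in E17 and 9 and 10 in E15, a difference of −7.83 with the same p values (exact permutation). Cluster b (chr11:96194316-96368254) held 1, 4 and 9 peaks in the lowest, median and highest day 6 library, against 10 and 20 in E17 and 10 and 10 in E15, a difference of −8.33 with the same p values (exact permutation). Cluster c (chr15:102921131-103036856) held the fewest peaks in the embryonic libraries, with 1, 1.5 and 5 in the lowest, median and highest day 6 library, against 5 and 6 in E17 and 4 and 5 in E15. Its groups overlapped and its difference of −2.83 missed the threshold (exact permutation, adjusted p = 0.108). Clusters a, b and d therefore fell and cluster c was not called.

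These differences moved with the length of the peak lists, and calls were lost once lists were scaled. Per 100000 peaks of a list, the 4 clusters together held 13.4 to 30.4 peaks at day 6 and 37.1 to 47.5 in the embryonic libraries, which did not overlap. Unscaled sums over 66 other homeobox genes did not overlap either (31 to 102 at day 6, 132 to 234 embryonic). Those over 10 thymocyte markers did (11 to 37 and 14 to 22). Scaled sums of other lists were not taken, so the separation is not read as particular to Hox clusters. Scaled in this way, cluster d averaged 2.66 at day 6 and 9.07 in the embryonic libraries, cluster b 5.45 and 11, cluster a 10 and 16.2, and cluster c 2.84 and 4.62. The exact permutation p was 0.00952 for clusters a, b and d, with an adjusted p of 0.128 over all features. On this scale 0 of 38 Hox genes and 0.0% of all genes passed the exact permutation test after adjustment. At an unadjusted exact p under 0.05, 9 Hox genes and 22.5% of all genes were counted. The median scaled difference was −0.512 over the 38 Hox genes, against −0.000212 over all genes. In the lists described below it was −1.04 over 66 other homeobox genes, −0.89 over 48 partner genes and −0.453 over 17 flanking genes. The shift was therefore not particular to Hox genes. Hoxd1 and Hoxd3 kept every day 6 library below every embryonic library, as did 6.56% of all genes. None had every day 6 library above, against 2.4% of all genes.

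Measured as the percent of window bases under a peak, 21 Hox genes (55.3%) fell and 0 rose, beside 67.9% and 0.178% of all genes (exact permutation, adjusted over all features). Those 21 were 7 of 10 in cluster a, 5 of 10 in cluster b, 2 of 9 in cluster c and 7 of 9 in cluster d. For 8 Hox genes every day 6 library lay below every embryonic library, against 54.7% of all genes, and the median difference was −1.21 percentage points over the 38 Hox genes, against −1.48 over all genes. Peaks were also narrower at day 6, with a median width of 106 to 135 bp in the day 6 lists, against 185 to 200 bp in the embryonic lists. Hoxa2 had 1.85 ± 2.09% of its window covered at day 6 (SD, n = 6) and 14.6 ± 4.43% in the embryonic libraries (SD, n = 4), with no overlap. Hoxa3 had 1.17 ± 0.528% and 5.06 ± 0.842% covered, day 6 and embryonic in turn, also with no overlap.

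With each list limited to its 40858 strongest peaks, the length of the shortest list, the 4 clusters together held 7, 11 and 14 peaks in the lowest, median and highest day 6 library, against 21 and 20 in E17 and 15 and 19 in E15. The share of Hox genes with a peak was then 21.1% to 42.1% at day 6 and 44.7% to 65.8% in the embryonic libraries, while that of all genes was 62.3% to 70.3% and 69.0% to 71.3%. Again the shares were not matched for window length. At this length the exact permutation p was 0.0429 for cluster a, 0.0476 for cluster b and 0.0524 for cluster d. No cluster passed after adjustment, and 0 Hox genes and 0.0% of all genes were called (exact permutation).

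**Figure D3:**
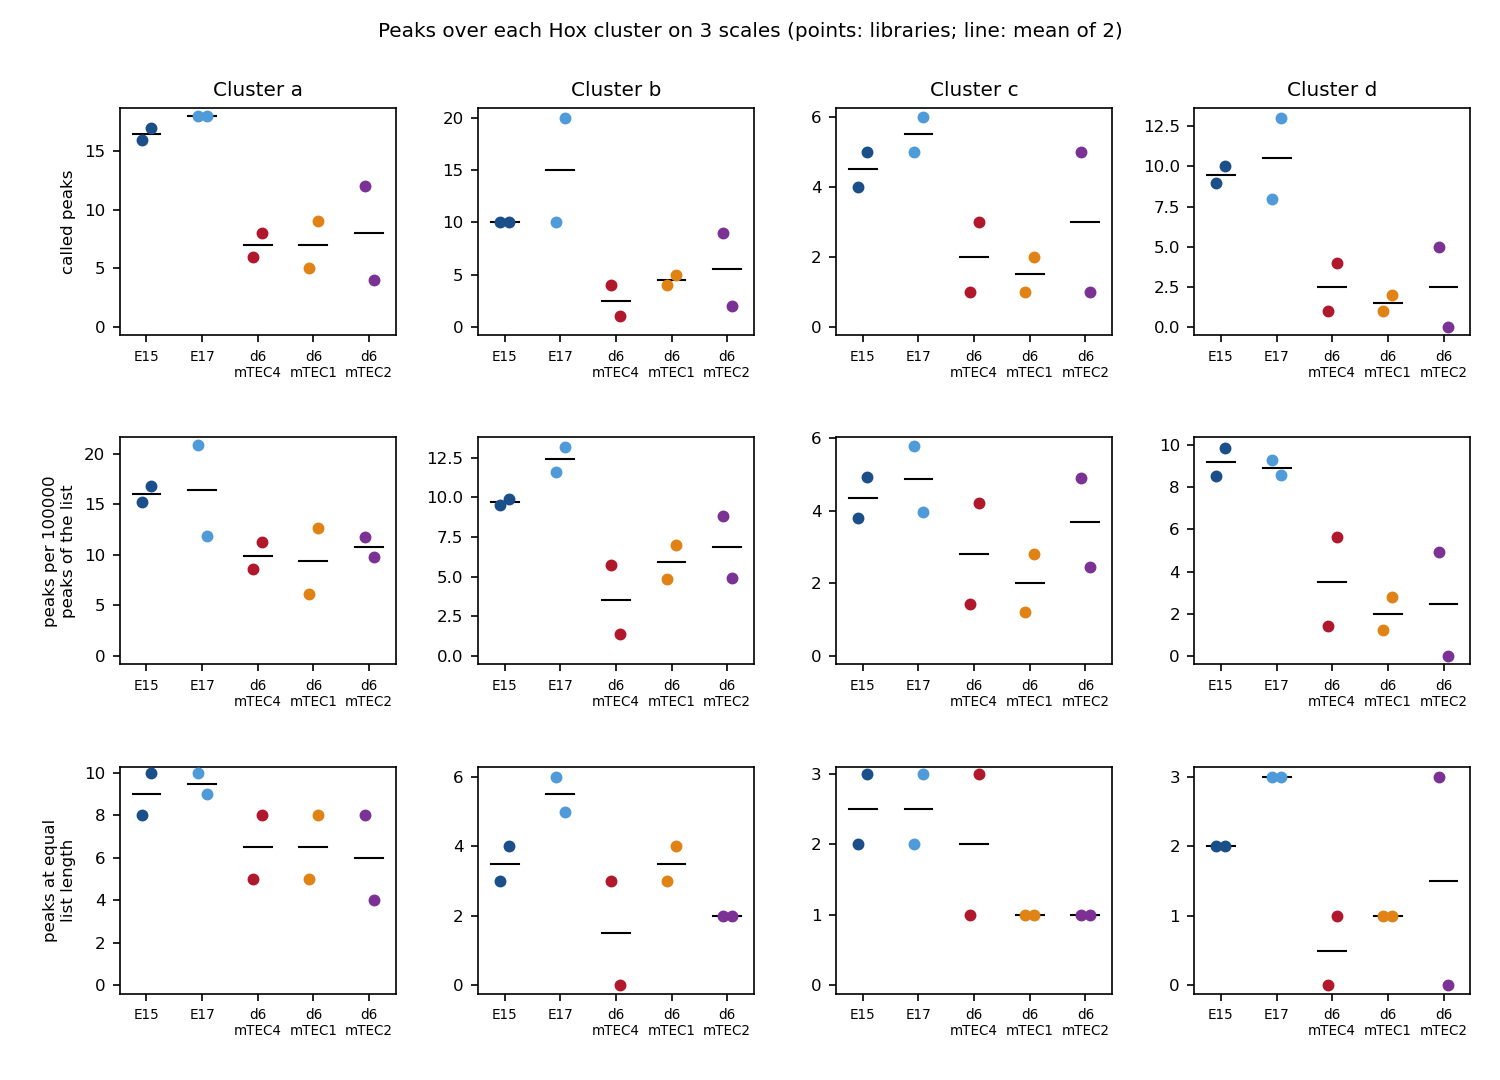
Peaks over each Hox cluster (columns) on 3 scales (rows: called peaks, peaks per 100000 peaks of the list, peaks among the 40858 strongest of each list) for the 5 groups; points are libraries and lines are means of 2. Cluster d per 100000 peaks averages 2.66 at day 6 and 9.07 in the embryonic libraries, while in cluster c the groups overlap on each scale.

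Within the libraries whose peak identifiers share a tag, the d6_mTEC2 libraries were set against the 4 embryonic libraries. Cluster a averaged 8.0 peaks in d6_mTEC2 and 17.2 in the embryonic libraries, cluster b 5.5 and 12.5, cluster c 3.0 and 5.0, and cluster d 2.5 and 10. Both d6_mTEC2 libraries lay below all embryonic libraries for 6 of 38 Hox genes, namely Hoxa2, Hoxa3, Hoxb6, Hoxb7, Hoxd1 and Hoxd3, and for 19.9% of all genes. The smallest exact permutation p of 2 against 4 libraries is 0.0667, so none could pass. The 2 d6_mTEC2 libraries themselves held 31 and 7 Hox peaks, the highest and the lowest day 6 totals. No order among the 3 fractions was therefore read from the peaks, and 2 against 2 libraries of E17 and E15 allow no test that reaches 0.05. E17 replicate 2 held 57 Hox peaks, against 39 to 42 in the other embryonic libraries, and it also had the longest list.

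Among the 95 regions, 23 (24.2%) had a call in each of the 4 embryonic libraries, against 18.7% of all regions. Of those 23, 5 (21.7%) had no day 6 call, against 22.9% among all such regions, so that 5.26% of the Hox regions and 4.29% of all regions were embryonic only by this measure. Hox regions without an embryonic call made up 24.2%, against 51.0% of all regions, and 0 of those had a call in each of the 6 day 6 libraries, against 0.0441% of all regions. Calls in 1 library only made up 45.3% of the Hox regions and 55.1% of all regions. A single region was called in all 10 libraries (1.05%, against 2.76% of all regions). It spans 387 bp inside the Hoxa3 gene span (chr6:52172512-52172898), and its −log10 q reached 18.7 in the authors' lists. A second region in the Hoxa3 span (chr6:52191780-52192053) was called in all 6 day 6 libraries and in 3 embryonic libraries. Cluster a held 12 of the 23 regions shared by the 4 embryonic libraries, cluster b 5, cluster d 4 and cluster c 2.

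The 5 regions shared by the 4 embryonic libraries but without a day 6 call lay at Hoxa3, Hoxb8 and Hoxd1, between Hoxd3 and Hoxd1, and 2072 bp from Hoxa2. The one in the Hoxa3 span (chr6:52186641-52186788, 148 bp) reached a −log10 q of 12.3, the highest of the 5. The one at Hoxb8 (chr11:96284497-96284699) reached 7.17. The one at Hoxd1 (chr2:74762506-74763183, 678 bp) reached 5.92 and contains the whole Hoxd1 promoter window printed above. The last lay 4631 bp from the Hoxd3 span (chr2:74752902-74753430) and reached 4.39. The Hoxa2 promoter window meets a region (chr6:52164818-52165379) that had 1 day 6 call, whose peak did not reach the window. The 1 region with no embryonic call and at least 2 day 6 calls lay in the Hoxa3 span (chr6:52198003-52198079, 77 bp), called in both d6_mTEC1 libraries, where its −log10 q reached 5.65.

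The strongest region of the 4 clusters lay 354 bp from Hoxb8 (chr11:96278888-96279047), where the −log10 q reached 47.1, and it was called in 3 day 6 and 4 embryonic libraries. The next were in the Hoxb6 span (31.9), in the Hoxa3 span (26.2) and in the Hoxd3 span (26), called in 2, 1 and 3 day 6 libraries and in all 4 embryonic libraries. Within its own list, the median Hox peak stood at a strength percentile of 51.8 to 75.9 at day 6 and of 48.7 to 58.9 in the embryonic libraries. Strength values belong to their own list and are given as a description.

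**Figure D4:**
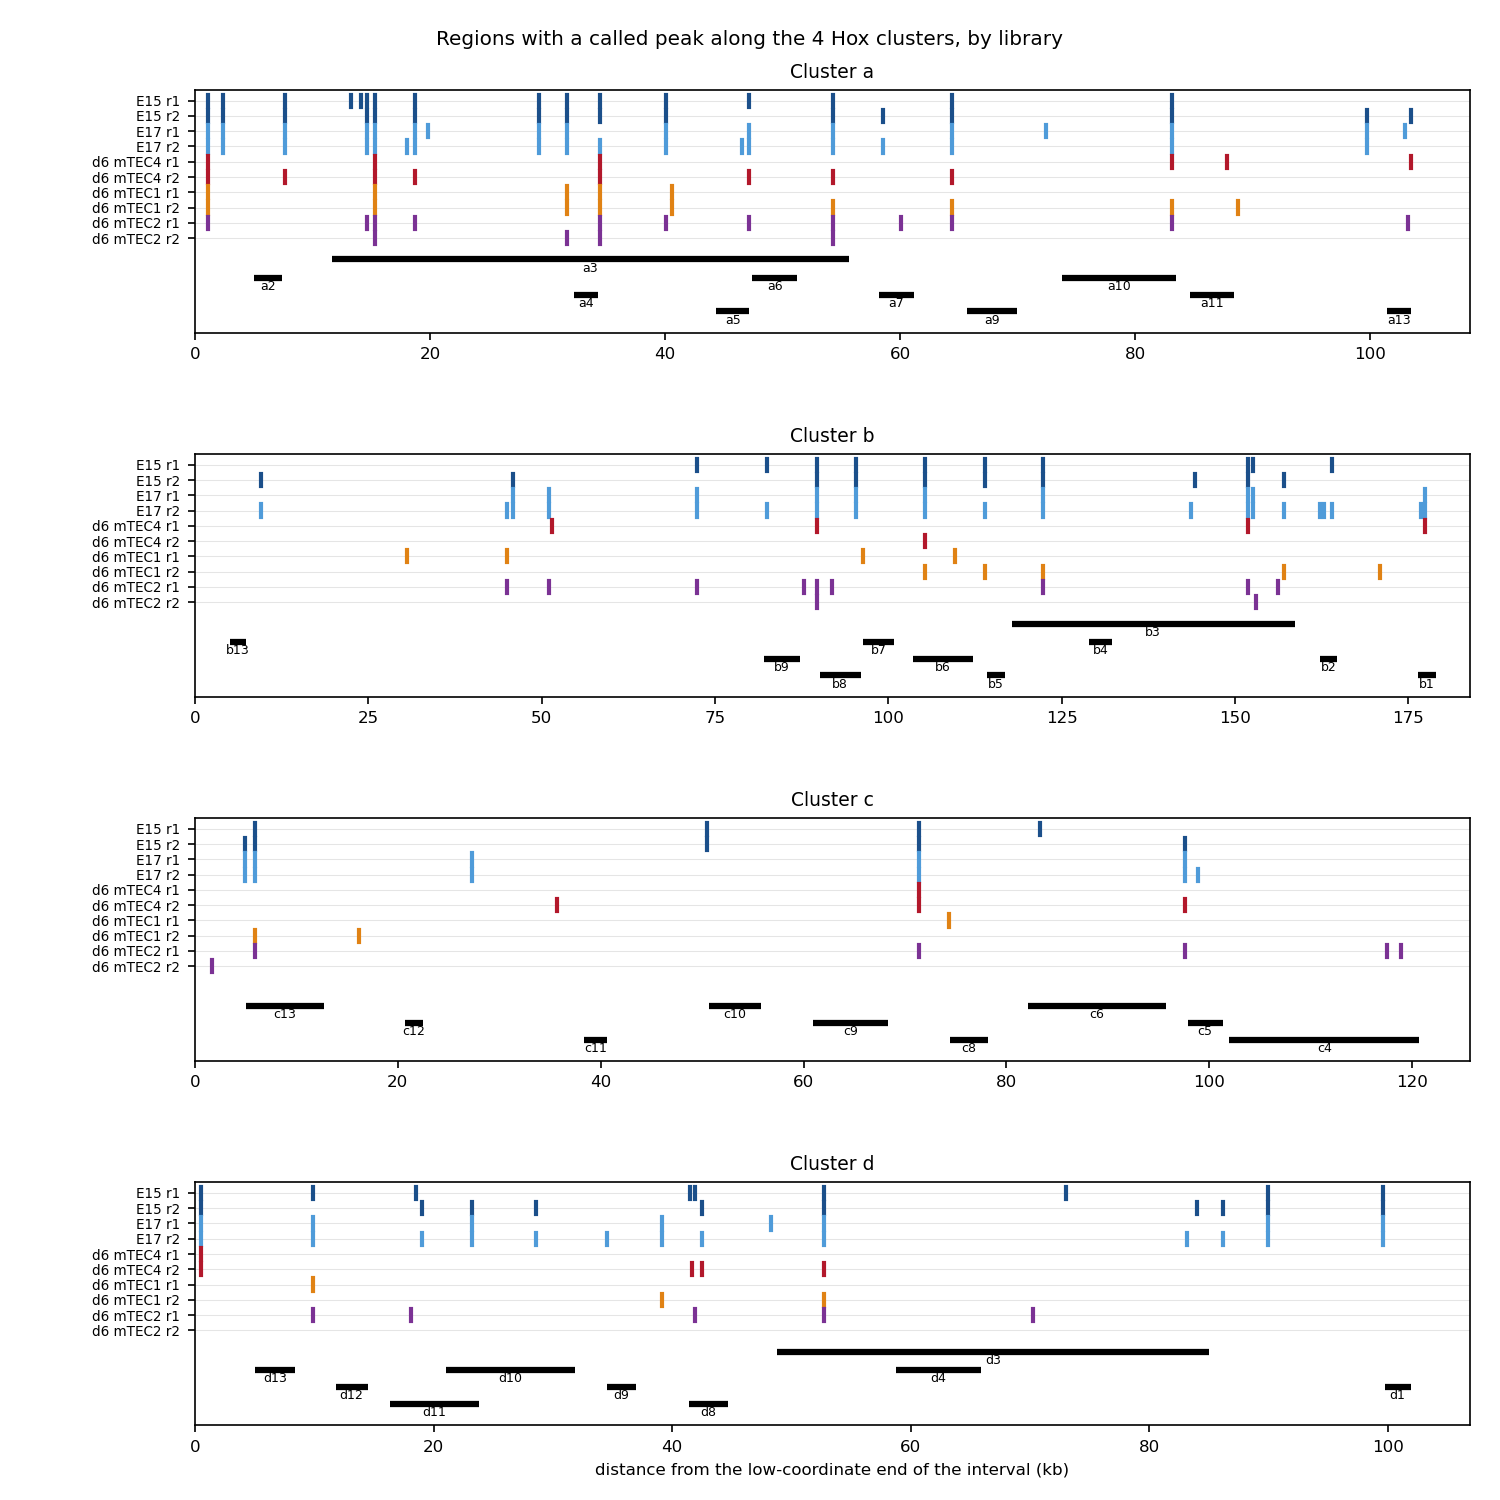
Regions with a called peak (coloured ticks) along clusters a to d in each of the 10 libraries (rows, r for replicate), by distance in kb from the low-coordinate end of the interval, with the gene spans as black bars. A tick runs through all 10 rows at 1 region only, in the Hoxa3 span of cluster a, and the d6_mTEC2 replicate 2 row of cluster d is empty.

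The clusters also hold microRNA genes whose products repress Hox messages among other targets. Their mature 5p sequences (RefSeq, GRCm38.p6) are shown because they fall into 2 families by the seed, bases 2 to 8 from the 5′ end, in capitals.
mmu-miR-10a-5p: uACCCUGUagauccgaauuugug
mmu-miR-10b-5p: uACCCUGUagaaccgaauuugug
mmu-miR-196a-5p: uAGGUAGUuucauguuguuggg
mmu-miR-196b-5p: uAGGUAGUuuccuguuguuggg
The microRNA 10a gene lies in cluster b and 10b in cluster d, and the microRNA 196a genes lie in clusters b and c and 196b in cluster a. None of these hairpins overlapped a called region. The nearest region to microRNA 196b lay 146 bp away and was called in E17 replicate 1 only. That nearest to microRNA 10a lay 5227 bp away and was called in 2 day 6 and 4 embryonic libraries. The mature microRNA 615 sequences of cluster c lay inside a region called in E17 replicate 2 only.

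Genes that work with or regulate Hox genes were taken as a list of 48, of which 14 (29.2%) fell at day 6 and 0 rose, beside 11.5% and 0.128% of all genes (exact permutation, adjusted over all features). Among the 9 TALE cofactors 4 fell, among them Meis1 and Meis2. Meis2 held 2, 5.5 and 16 peaks in the lowest, median and highest day 6 library, against 30 and 34 in E17 and 32 and 28 in E15, a difference of −23.8 (exact permutation, adjusted p = 0.0409). Meis1 differed by −14.4 with the same adjusted p. Pknox2 (−18.2) and Rarb, a retinoic acid receptor (−15.9), had an adjusted p of 0.0603 (exact permutation) and were not called.

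Polycomb genes fell for 3 of 15, among them Phc2, Trithorax and boundary genes for 2 of 7 (Kmt2a and Ctcf), and upstream or retinoic acid genes for 4 of 13, among them Cyp26a1 and Cyp26b1, which break down retinoic acid. Of Evx1, Evx2, Mnx1 and Gbx2, Evx2, which adjoins cluster d, fell, and Evx1 had no peak in any library. Of 17 non-Hox genes that flank the clusters, 2 (11.8%) fell, Skap1 next to cluster b and Atp5g2 next to cluster c, a share near the 11.5% of all genes. Skap1, an adaptor of T cell signalling, differed by −10.2 (exact permutation, adjusted p = 0.0409), Skap2 by −8.75, Snx10 by −3.42, Cbx5 by −2.92 and Hibadh by −2.83, the last 4 not called.

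Other homeobox genes outside the clusters fell for 13 of 66 (19.7%), and 0 rose, beside 11.5% and 0.128% of all genes. Lhx4, of pituitary development, held 0, 1.5 and 3 peaks in the lowest, median and highest day 6 library, against 7 and 9 in E17 and 5 and 7 in E15. Barx2 and Emx2 held 0, 0.5 and 2 peaks in the lowest, median and highest day 6 library. In the embryonic libraries Barx2 held 4 and 8 in E17 and 6 and 4 in E15, and Emx2 4 and 6 in E17 and 4 and 4 in E15. Pax5 (−6.75) and Pax2 (−4.33) were not called. The median difference was −1.54 peaks over the 66 genes, against −0.959 over Hox genes and −0.833 over all genes. Per 100000 peaks it was −1.04, −0.512 and −0.000212 in turn. Scaled to list length, 0 genes of these lists and 0.0% of all genes were called (exact permutation).

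Marker genes of other cell types moved in part with the same comparison. All 13 TEC markers had a peak at each age, with 16 to 43 peaks in sum at day 6 and 42 to 61 in the embryonic libraries, and Krt8 and Krt14 fell (15.4%, against 11.5% of all genes). The 12 mesenchyme markers summed to 7 to 20 peaks at day 6 and 29 to 43 in the embryonic libraries. Of these Col1a2 and Twist1 fell (16.7%), and Twist1 was at 0 in all day 6 libraries. The 10 thymocyte markers summed to 11 to 37 at day 6 and 14 to 22 in the embryonic libraries, the 6 macrophage and dendritic cell markers to 6 to 13 and 6 to 10, and the 4 endothelial markers to 9 to 20 and 13 to 25, with 0 called in these 3 lists. The part of other cell types in the Hox differences was not tested.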

How the data were processed

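The submitters' processing notes name the tools cutadapt, Bowtie2, Picard and MACS2 and the mouse build mm10. Versions, roles and any shift of read ends towards the transposase site are not given in the sources used here. Each library has its own broad peak list, so replicates were not pooled. The deposited score of each peak was not used. The deposited fold enrichment, a ratio to the caller's background, served only to describe peaks within a list. The deposited −log10 p and −log10 q values ranked or filtered peaks within a list. No list held a −log10 q under 1.0002. No read counts come with the lists, so the depth of a library cannot be given, nor a counting interval.

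Gene spans and promoters came from RefSeq (GRCm38.p6, the coordinates of mm10). A peak was counted in a window with at least 1 bp of overlap. Peaks of all lists that overlapped or touched were merged into regions. Day 6 (6 libraries) and embryonic (4 libraries) means were compared by an exact two-sided permutation test, with Benjamini-Hochberg adjustment over 21887 gene windows and 4 cluster intervals. E17 against E15 and the day 6 fractions against each other had no test. The procedure was tested on simulated data. The alternatives concerned peak strength, list length, overlap, window size, bases covered, merged regions, a replicate block, leaving out each library, and, added after the data were seen, the libraries sharing a peak name tag.

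The members and the gene lists were chosen with earlier results of these data known. Every Hox gene could be named. Named without regard to further choice were Hoxa3, Hoxb3 and Hoxd3, the 2 largest and the 2 smallest differences in each cluster, all called genes, and up to 5 genes of each other list. Some genes that this rule selects are not reported here. The other members are given by their ranges. Analyses used Python 3.11.15 with numpy 2.4.6 and pandas 2.3.3, and matplotlib 3.10.9 for plots.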

Additional observations from a re-analysis of the deposited data

Results flagged for a closer look

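Within each age, the number of peaks at a Hox gene or cluster was checked for a library far from the others, by its gap to the nearest one relative to the range of the group. Chance sets apart about 1 in 20 groups. Of 84 checks 19 did so, and since these are small whole numbers with many ties, a difference of 1 peak was often enough. Over cluster b, E17 replicate 2 had 20 peaks, against 10 in each of the other 3 embryonic libraries. The day 6 library d6_mTEC2 replicate 1 stood apart at 6 genes, with 3 peaks at Hoxb8, Hoxb9 and Hoxc4, where the others had 0 to 1, and 1 peak at Hoxd4, Hoxd10 and Hoxd11, where the others had 0. Single day 6 peaks with 0 in the other 5 libraries were found at Hoxb1 (1, d6_mTEC4 replicate 1), Hoxc11 (1, d6_mTEC4 replicate 2) and Hoxc12 (1, d6_mTEC1 replicate 2). Among the embryonic libraries, E17 replicate 1 stood apart at Hoxa9 and Hoxa10 (2 peaks each, against 1), at Hoxa4 (2, against 3), at Hoxb6 (1, against 2) and at Hoxb5 (0, against 1). E15 replicate 2 had 1 peak at Hoxd8 and at Hoxd13, against 2 in the others. E15 replicate 1 had 1 peak at Hoxc13, against 2, and E17 replicate 2 had 2 at Hoxc6, against 1.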

How the results depend on the processing

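The count of 5 Hox genes that fell was 5 with peak midpoints and with merged regions. It was 11 with a −log10 q of at least 2 (all genes 39.2%), 15 with at least 5 (42.2%), 21 with percent of bases covered (67.9%), 2 with the gene span only (9.61%), 3 with 10 kb on each side (13%), 0 at equal list length (0.0%) and 0 (0.0%) for libraries sharing the name tag. Leaving out 1 library gave 0 to 8, with 8 without d6_mTEC2 replicate 1 and 0 without any other, where no gene of the genome was called either. With 1 library fewer the smallest exact p is 0.00794 (a day 6 library left out) or 0.0119 (an embryonic one). The count per 100000 peaks was 0 in each case, leave-one-out 0 to 0. Cluster a (−9.92) gave −2.92 at equal length, −11.4 with 50 kb, −6.17 per 100000, −9.25 with the tag and −10.8 to −9.25 leaving out 1 library. Cluster b (−8.33) gave −2.17, −8.5, −5.59, −7.0 and −9.3 to −5.83, the last without E17 replicate 2. Cluster d (−7.83) gave −1.5 at equal length, −6.41 per 100000, −7.5 with the tag and −8.5 to −6.83. None of these 3 passed under these alternatives, except without d6_mTEC2 replicate 1. All 3 passed at both −log10 q bounds, with midpoints, merged regions, bases covered and no flank, and cluster d also with 50 kb (−11.2). Cluster c (−2.83; −3.4 to −2.5 leaving out 1 library) passed at −log10 q of at least 2 (−3.5) and 5 (−2.33), with bases covered (−0.56 percentage points) and without d6_mTEC2 replicate 1 (−3.4). The sign turned for Hoxb5 at equal length (0.167), for Hoxa11 (0.167), Hoxb7 (0.167) and Hoxc4 (0.333) with the gene span only, for Hoxc4 with the tag (0.5), and for Hoxc11 (−0.333) and Hoxd4 (−0.583) with 10 kb. The cause of these changes was not tested.

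Same-numbered deviations correlated at −0.16 to 0.18 over 10 pairs of groups, 1 above 0.1. Since each group had 2 libraries, these values cannot show whether replicate numbers paired the libraries. With a replicate block, 100 arrangements remain and the smallest exact p is 0.01. The count of Hox genes was then 0, also per 100000 peaks, and on both scales 0.0% of all genes were called. Clusters a, b and d kept −9.92, −8.33 and −7.83 with an adjusted p of 0.0751 (exact permutation).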
